A study of Mus musculus with 2 samples.

Results

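The cells described here are mouse hindlimb mesenchyme cells of E11.5 embryos in which the reporter of an enhancer variant was strongly detected and that of the reference enhancer was not detected, set against cells in which the reference reporter was strongly detected. Members were selected on their own reporter UMIs (unique molecular identifiers, each standing for 1 captured transcript). Variant-only cells had 5 or more eGFP UMIs and no mCherry UMI, and reference cells had 5 or more mCherry UMIs with any eGFP. In the main library, dual-enSERT-1, 667 variant-only and 492 reference cells were found, 1159 of 12386 cells that passed a mesenchyme gate and of 20508 barcodes. The second library, dual-enSERT-2, held 16 and 87 such cells among 3750 gated cells and 8885 barcodes, and served to check directions. The series held 29393 barcodes in all. The gate asked for 1000 or more genes, at most 10% mitochondrial UMIs, 2 or more Prrx1 UMIs, less than 2% globin UMIs and no UMI of Epcam, Cdh5, Lbx1 or Csf1r, markers of ectoderm, endothelium, muscle precursors and macrophages.

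Each library came from the hindlimb of 1 FVB embryo that carried both reporters at H11, an insertion site on chromosome 11. A reference copy of the ZRS was joined to mCherry and a copy with the ZRS404G>A substitution to eGFP. The series title names human enhancer variants. In dual-enSERT-2 the label adds a part called B at both ends and a part called SI between the reporters, which it does not spell out. The embryos differed as well as the constructs, and these differences cannot be told apart. With 1 library per construct there was no replicate, so no test was run, and intervals (95%, exact) cover counting error only.

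The ZRS is the limb enhancer of Shh and lies in an intron of Lmbr1. It is active in the polarizing region, a group of mesenchyme cells at the posterior margin of the limb bud that secrete Sonic hedgehog. Receiving cells read the signal through the receptor Ptch1 and the Gli factors, and raise Ptch1 and Gli1 in turn. Hand2 and the 5′ Hoxd genes mark the posterior bud, whereas Pax9 and Alx4 mark its anterior side. Tbx2 and Tbx3 were put in the posterior list used below. Substitutions in the ZRS are known from polydactyly, in which the enhancer is also active at the anterior margin. The question addressed by this comparison is how the position and signalling state of cells with strong variant activity alone differed from those of cells with strong reference activity.

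Reporter counts set the groups and are given as a description. In dual-enSERT-1 variant-only cells held 5 to 95 eGFP UMIs (median 9), a pooled level of 644 CPM, where CPM stands for UMIs per 1000000 UMIs summed over the cells of a group. Reference cells held 5 to 134 mCherry UMIs (median 11), 774 CPM, and most carried eGFP too. In 273 of the 492 (55.5%) eGFP was 5 or more, in 186 (37.8%) it was 1 to 4, and only 33 (6.71%) had none. Seen from the variant side, 667 of 1500 gated cells with 5 or more eGFP UMIs had no mCherry (44.5%, 41.9 to 47.0). In dual-enSERT-2 that share was 16 of 104 (15.4%, 9.06 to 23.8), eGFP stood at 217 CPM in variant-only cells, and 13 of 87 reference cells had no eGFP (14.9%). Median depth was alike in the compared groups, 18113 and 18478 UMIs per cell in the main library and 29176 and 33054 in the second. Gated cells with neither reporter, also given below (5553 and 2381 cells), were shallower at 13147 and 23763 UMIs. Ectoderm, endothelium and muscle cells outside the gate met the variant-only rule in 2 of 506 cells (0.395%) and 0 of 172 cells (exact upper bound 2.12%), and the reference rule in 1 cell of each library (0.198% and 0.581%).

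Mesenchyme markers were high in both groups and those of most other cell types were near 0. Summed over 8 mesenchyme markers the level was 2205 CPM in variant-only and 2453 in reference cells of dual-enSERT-1. The second library gave 2005 and 1846. The gate required UMIs of Prrx1, itself a mesenchyme gene, so high mesenchyme levels in gated cells were in part set by the selection. The summed ectoderm, endothelium, muscle, macrophage and glia lists each stayed at or under 5.96 CPM in both groups of both libraries, with Epcam, Cdh5, Lbx1 and Csf1r at 0 by the gate. In dual-enSERT-1 the muscle list was at 5.96 in variant-only and 1.49 in reference cells and the macrophage list at 0.368 and 3.44, and in dual-enSERT-2 the ectoderm list was at 0 and 3.93. Their part in the results was not tested. Neuron markers summed to 36.1 and 28.9 in dual-enSERT-1. Erythroid markers stood at 287 and 308 in the first library and at 2138 and 2250.1. Scrublet called 112 variant-only cells (16.8%) and 84 reference cells (17.1%) of dual-enSERT-1 doublets, against 9.83% of all cells that passed the gene and mitochondrial limits, and none of the members in dual-enSERT-2. Of 49 barcodes found in both libraries, 0 belonged to members.

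Shh itself separated the groups. It lies on chromosome 5 (GRCm39, 28661813 to 28672254, minus strand), and Lmbr1, host of the endogenous enhancer, at 29434800 to 29583510 on the same chromosome. In dual-enSERT-1 Shh stood at 3.31 CPM in variant-only cells (45 UMIs), 86.1 in reference cells (925 UMIs) and 0.604 in cells with neither reporter. The reference level was 26.0-fold that of the variant-only cells (19.3 to 35.9), a log2 fold of -4.34 for variant-only over reference. Per cell, 23 of 667 variant-only cells had a Shh UMI (3.45%, 2.20 to 5.13, at most 7 UMIs), whereas 301 of 492 reference cells did (61.2%, 56.7 to 65.5, at most 16 UMIs). After each cell was thinned to 5000 UMIs, which left out 6 variant-only and 3 reference cells, the shares were 1.66% and 29.9%, beside 0.190% of cells with neither reporter and 0 of 474 non-mesenchyme cells (upper bound 0.775%). In dual-enSERT-2 Shh was 21.1 against 111 CPM (log2 fold -2.34), with a UMI in 6 of 16 (37.5%) and 61 of 87 cells (70.1%). There 1 variant-only cell held 45.5% of its group's 11 Shh UMIs. Log2 folds here are between pooled levels, each with 1 CPM added. The dual-enSERT-1 fold of Shh was -4.94 at a reporter threshold of 10 UMIs and -3.45 with 5 CPM added.

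**Figure D1:**
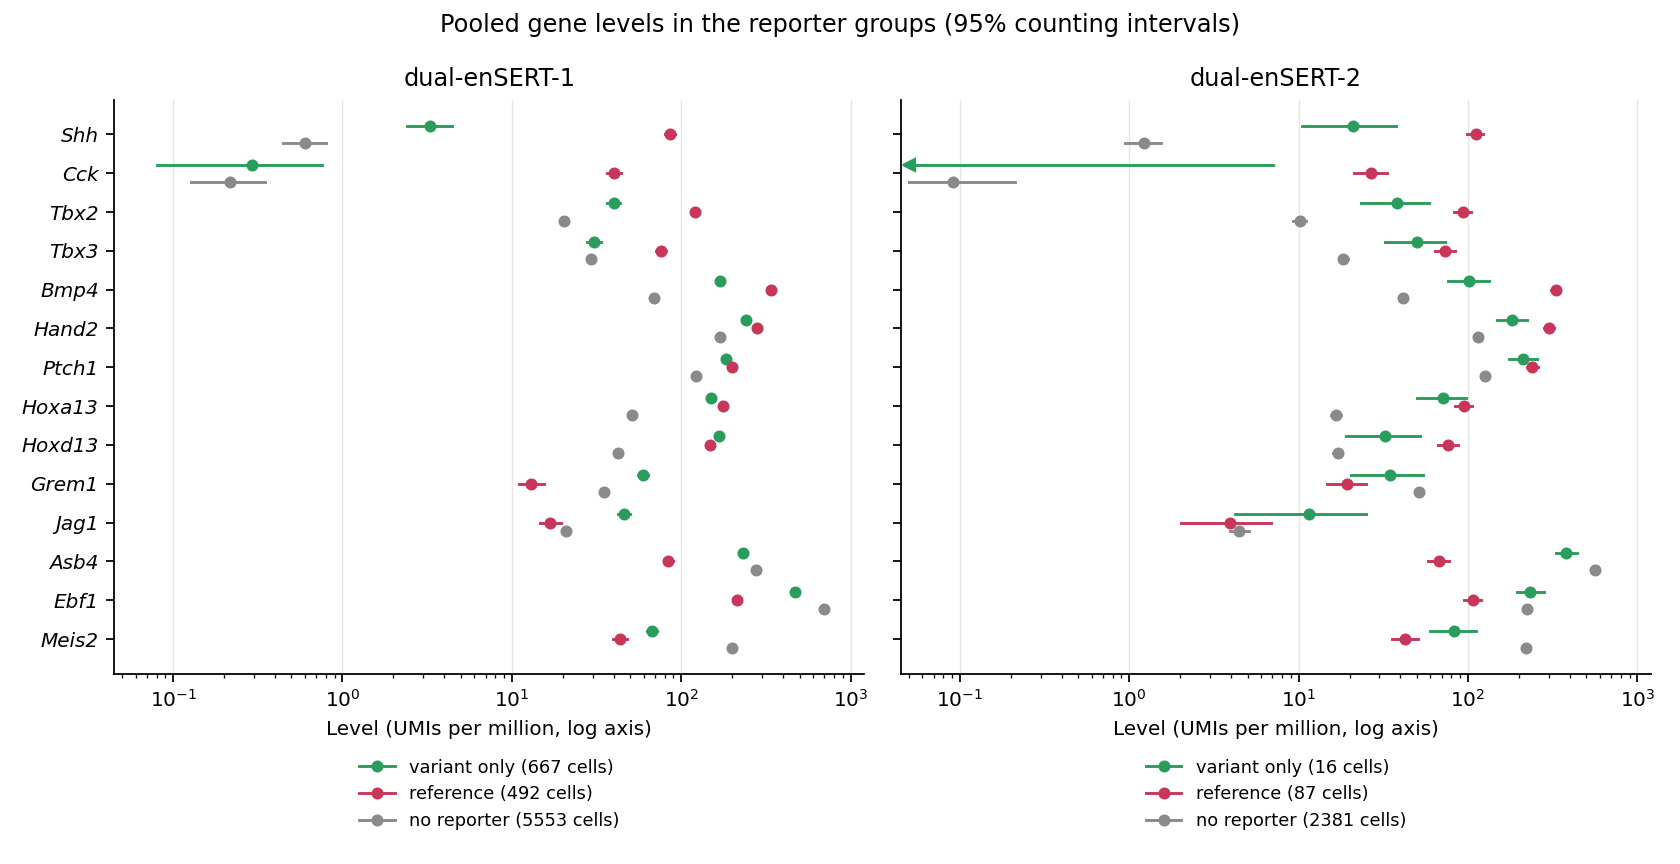
Pooled level of 14 genes (log axis, CPM) in variant-only cells, reference cells and cells with neither reporter of dual-enSERT-1 (left) and dual-enSERT-2 (right). Points are pooled levels, bars 95% exact Poisson intervals, and the arrow marks a gene with 0 UMIs. Shh, Tbx2 and Bmp4 were lower and Asb4, Ebf1 and Meis2 higher in variant-only than in reference cells in both libraries.

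Over the whole transcriptome the groups were close. A gene was counted as past the fold at an absolute log2 fold of 0.58 with 20 CPM or more in either group. Of 7144 such genes in dual-enSERT-1, 70 were higher in variant-only cells (0.980%) and 54 lower (0.756%), and the median log2 fold was 0.01. With 16 variant-only cells the same rule passed far more genes in dual-enSERT-2, 508 of 7258 higher (7.00%) and 424 lower (5.84%), so that single folds of that library are given for their sign. Without each gene's top cell the counts there were 276 and 793. Of the 70 genes higher in dual-enSERT-1, 69 had 10 or more UMIs in dual-enSERT-2 and 52 of these had the same sign (75.4%). Of the 54 lower genes 53 did, and 45 had the same sign (84.9%). Among all 7258 genes of dual-enSERT-2 with 20 CPM or more, 52.5% had a fold above 0. The same-sign share over all genes was not computed. Past the fold in both libraries were 36 higher and 25 lower genes. The naming rule for single genes required the same sign in both libraries. For genes named by it below, the shared sign of the main folds was therefore set by selection and is no check of direction.

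**Figure D2:**
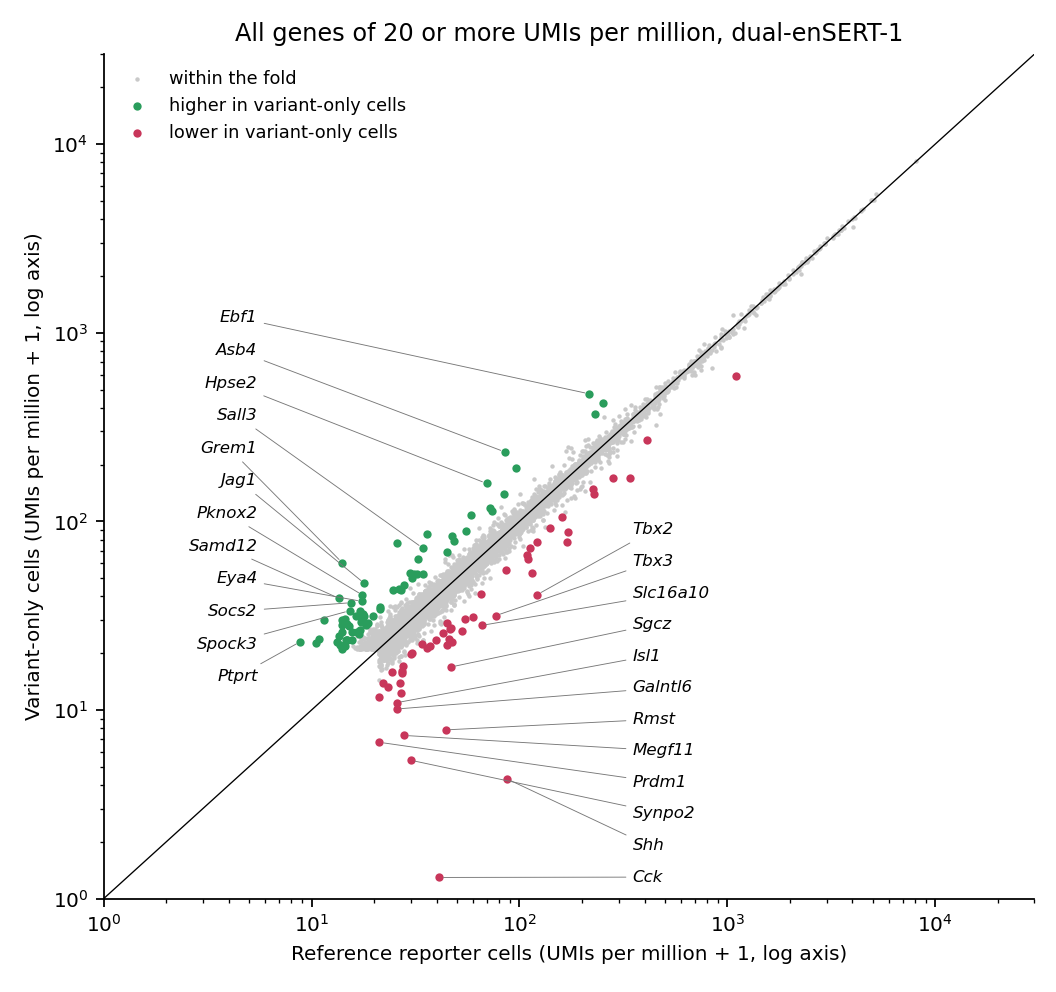
Pooled level of each of the 7144 genes with 20 or more CPM in either group of dual-enSERT-1, reference cells on the x axis and variant-only cells on the y axis (both log, 1 added). Green and red points are the 70 higher and 54 lower genes, the line marks equal levels, and the 24 labelled genes are those taken by the naming rule.

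Besides Shh, the gene with the largest deficit in variant-only cells was Cck, which encodes the peptide precursor of cholecystokinin. Cck had 4 UMIs in all 667 variant-only cells (0.294 CPM) and 430 in the 492 reference cells (40.0 CPM), a 136-fold gap (52.7 to 502). Its level in cells with neither reporter was 0.218. Its log2 fold of -4.99 was -5.79 at a reporter threshold of 10 UMIs, -3.87 with groups drawn after thinning to 10000 UMIs and -3.09 with 5 CPM added. In reference cells the UMIs came from few cells, 14.4% of them, with up to 39 in 1 cell. In dual-enSERT-2 no variant-only cell had a Cck UMI against 82 UMIs in reference cells (26.9 CPM), and 45.1% of the 82 were in 1 cell. The gap was 4.67-fold with a floor of 3 UMIs set for the variant-only group, and the bound of the exact interval was 3.71-fold. Rmst, a long noncoding RNA, stood at 6.84 CPM in variant-only and 43.3 in reference cells of the first library, a log2 fold of -2.50. In dual-enSERT-2 the fold was -0.23, with all 4 variant-only UMIs in 1 cell, and -3.22 without the top cell of each group. The actin-binding gene Synpo2 was at 4.41 against 29.0 (-2.47, or -1.85 with 5 CPM added, and -2.68 in dual-enSERT-2), and the transmembrane EGF-repeat gene Megf11 at 6.33 against 26.9 (-1.93 and -0.98). Slc16a10, an aromatic amino acid transporter, was at 27.1 against 64.7 (-1.23 and -1.40). Sgcz, a sarcoglycan, and Galntl6, of a glycosyltransferase family, were lower in dual-enSERT-1 (-1.47 and -1.35) and at -0.35 and -0.11 in dual-enSERT-2. There 66.7% of the 12 Galntl6 UMIs of variant-only cells were in 1 cell, and its fold was -1.26 without the top cells and -3.58 in cells of 10000 to 40000 UMIs. That of Sgcz was 0.46 in cells of that depth and -2.42 among cells without a Shh UMI. Isl1, a LIM-homeodomain factor that acts early in hindlimb outgrowth, was at 9.93 against 24.7 (-1.23 and -1.09), while the other hindlimb genes Pitx1, Tbx4, Hoxc10 and Hoxc11 lay between -0.30 and -0.08 in dual-enSERT-1.

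Part of this group went with Shh detection. Among reference cells of dual-enSERT-1, Cck was 61.5 CPM in the 301 cells with a Shh UMI and 5.13 in the 191 without (log2 fold 3.35), and Rmst was 62.7 and 11.7 (2.32). Against the 191 reference cells without a Shh UMI, the 644 variant-only cells without one had less Cck (-2.51) and Synpo2 (-1.79). Tbx2 (36.7 against 95.6, -1.36), Rmst (-0.94), Tbx3 (29.3 against 51.8, -0.80) and Bmp4 (165 against 265, -0.68) were also lower. Sgcz was short of the fold there at -0.48, and Prdm1, Galntl6 and Isl1 stood at -0.81, -0.76 and -0.58. In that comparison 60 genes were higher and 26 lower, beside 70 and 54 of 7144 (0.980% and 0.756%) among all cells of both groups. A cell without a Shh UMI may still express Shh. Thinning lowered the share of dual-enSERT-1 reference cells with a Shh UMI from 61.2% to 29.9%. The split thus did not match the groups for Shh, and whether these differences were separate from Shh was not tested.

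Genes of the posterior list had no common direction. Tbx2, a T-box repressor of that list, stood at 39.9 CPM in variant-only and 121 in reference cells of dual-enSERT-1 (log2 fold -1.57, 3.03-fold, 2.74 to 3.35). In cells with neither reporter Tbx2 was at 20.3. In dual-enSERT-2 Tbx2 was 38.4 against 93.8 (-1.27). Tbx3, its paralog, was 30.7 against 76.3 (-1.29), with 29.3 in cells with neither reporter, and -0.55 in dual-enSERT-2. Hand2, which activates Shh through the ZRS, differed little in dual-enSERT-1, at 243 against 281 (-0.21), and stood at 169 in cells with neither reporter. In dual-enSERT-2 Hand2 was 182 against 300.4 (-0.72). Of 8 posterior genes measured in dual-enSERT-1 (5 or more CPM), 2 were past the fold as lower, none as higher, and the median was 0.15, because Hoxd10, Hoxd11, Hoxd12, Osr1 and Sall1 were between 0.11 and 0.56. At that minimum 1.23% of 10837 genes were lower, 1.58% were higher, and the median of all was 0.02. In dual-enSERT-2 3 of 7 posterior genes were lower, with a median of -0.55, where 10.4% of all 11022 genes were lower and 13.3% higher.

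Anterior genes named here, Asb4 and Pax9, were higher in variant-only cells of dual-enSERT-1. Asb4, a ubiquitin ligase subunit of the anterior list, was 232 CPM against 84.1 in reference cells of dual-enSERT-1 (log2 fold 1.46, ratio 2.57 to 2.98) and 382 against 67.2 in dual-enSERT-2 (2.49). Its level in cells with neither reporter was higher still, 278 and 559.9. At 5000 UMIs Asb4 was seen in 52.8% of variant-only, 18.2% of reference and 58.3% of cells with neither reporter, beside 24.5% of non-mesenchyme cells. Pax9, a paired-box factor of the anterior margin, was low in all groups at 6.48 against 2.98 (0.91). Gli3, the main Hedgehog repressor factor of the bud, was short of the fold at 234 against 179.9 (0.37). In dual-enSERT-2 Gli3 was at 0.67, and Pax9 had 0 UMIs in variant-only and 1 in reference cells. Alx4 was at or under 1.55 CPM in both groups of dual-enSERT-1, with a fold of 0.09 that was -0.62 at a reporter threshold of 10 UMIs. Without cells called doublets the dual-enSERT-1 folds were larger, 2.49 for Asb4 and 2.28 for Pax9. With groups drawn after thinning to 10000 UMIs they were 2.26 and 1.76, and among cells with a Hand2 UMI that of Pax9 was 0.04.

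**Figure D3:**
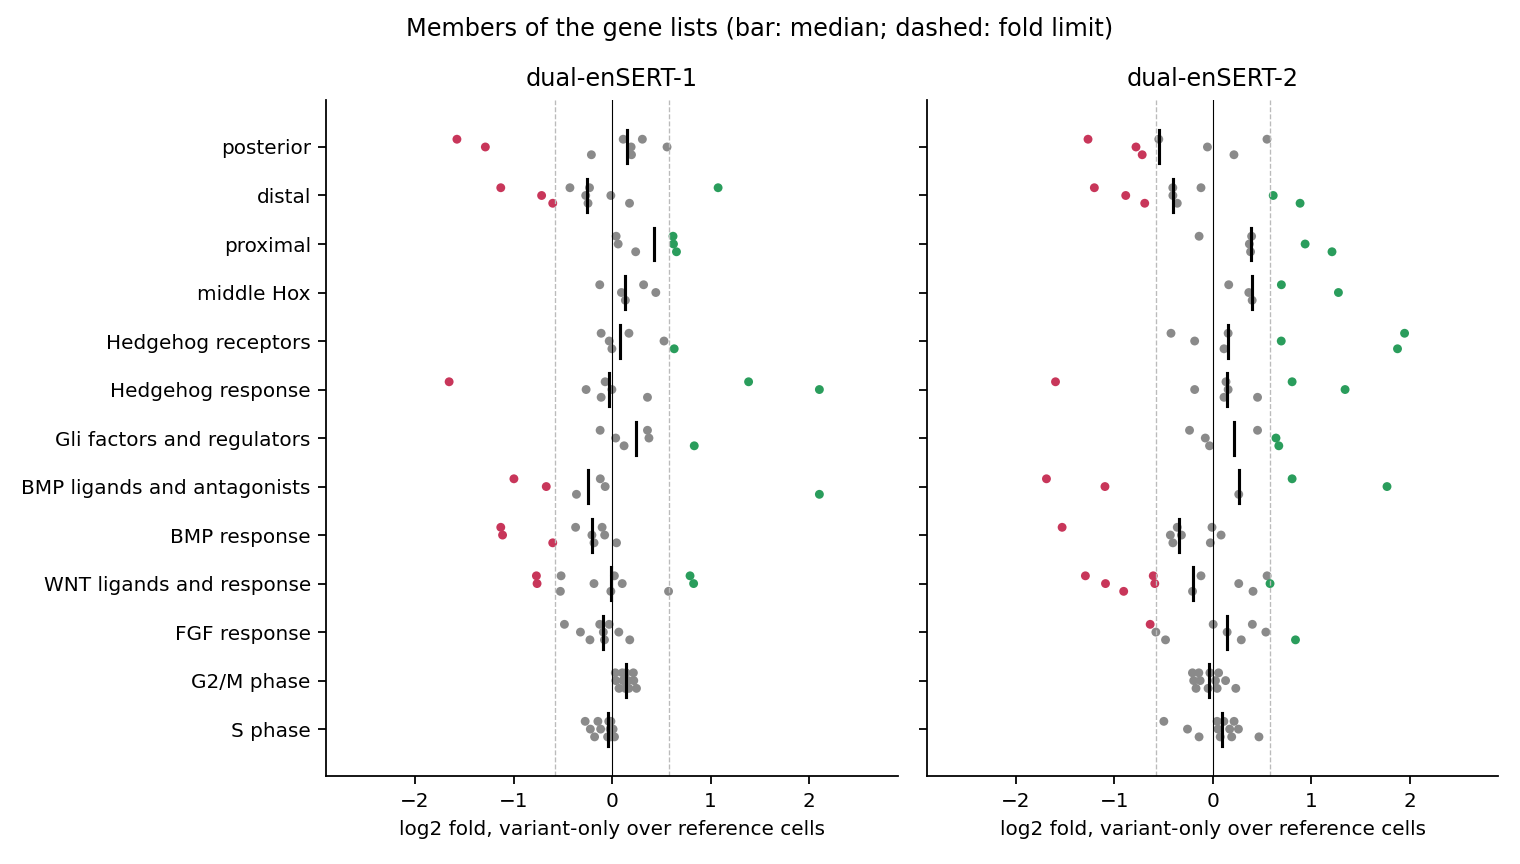
Log2 fold of variant-only over reference cells for each measured member of 13 gene lists in dual-enSERT-1 (left) and dual-enSERT-2 (right). Green and red points are past the fold of 0.58 (dashed), grey ones are not, and black bars are list medians, which were 0.15 and -0.55 for posterior genes.

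Along the proximal-distal axis, pooled Hoxa13 and Hoxd13 levels were above those of cells with neither reporter in both groups of both libraries. Some other distal genes were lower and some proximal genes higher in variant-only than in reference cells. Hoxa13, which marks the autopod (the future foot), stood at 150.0 CPM in variant-only, 176 in reference and 51.3 in cells with neither reporter of dual-enSERT-1 (log2 fold of variant-only over reference -0.23). Hoxd13, its partner in digit formation, was at 168, 148 and 42.6 (0.18). In dual-enSERT-2 Hoxa13 was at 71.1 against 94.4 (-0.41) and Hoxd13 at 32.6 against 76.4 (-1.20), from 17 UMIs in the variant-only cells. After thinning, a Hoxa13 or Hoxd13 UMI was seen in 68.5% of variant-only and 78.5% of reference cells of dual-enSERT-1, and in 18.8% (4.05 to 45.6) and 44.8% (34.1 to 55.9) of those of dual-enSERT-2. Cells with neither reporter had one in 20.7% and 10.1%, and the second share lies inside the interval of the dual-enSERT-2 variant-only cells. The distal list held 10 measured genes with a median of -0.26 in dual-enSERT-1, of which 3 were lower and 1 higher, beside 1.23% and 1.58% of all genes. The genes lower were Msx2 (11.3 against 26.0, -1.13), Lhx2 (138 against 228, -0.71) and Msx1 (268 against 408, -0.60), homeobox genes of the distal mesenchyme. Sall3, a zinc finger factor, was higher (71.2 against 33.2, 1.08, and 0.89 in dual-enSERT-2). Of 6 proximal genes measured in dual-enSERT-1, 3 were higher and 0 lower, beside the same shares of all genes. The higher ones were Meis1 (27.2 against 17.3, 0.62) and Meis2 (67.5 against 43.6, 0.62), TALE homeodomain factors of the proximal bud, and Zbtb16 (14.2 against 8.66, 0.65). In dual-enSERT-2 2 of 6 were higher, where 13.3% of all genes were. In dual-enSERT-1 the list also held smaller folds. Pbx3 and Shox2 were at 0.24 and 0.06. Meis2 stood at 199.7 in cells with neither reporter and its fold was 1.63 with groups drawn after thinning to 10000 UMIs.

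Hedgehog signalling genes gave no common direction. Ptch1, receptor and target of the pathway, was at 185 CPM in variant-only and 199.6 in reference cells of dual-enSERT-1 (log2 fold -0.11, ratio 0.874 to 0.981) and at 122 in cells with neither reporter, and -0.18 in dual-enSERT-2. Gli1, the activator induced by the signal, was at 23.1, 17.8 and 15.9 in the same order (0.36, ratio 1.08 to 1.56). Smo, the signal transducer of the pathway, was at -0.03. Gas1, a Hedgehog co-receptor that the pathway represses, was higher at 113 against 72.5 (0.63, and 1.88 in dual-enSERT-2), and the co-receptor Boc was at 32.5 against 22.3 (0.53). Gli2 was higher at 52.1 against 28.8 (0.83 and 0.64). Of the 8 response genes measured in dual-enSERT-1, Grem1 and Jag1 were higher and Prdm1 was lower, where 1.58% of all genes were higher and 1.23% lower. The median was -0.04. Prdm1, a transcriptional repressor found in the posterior mesenchyme, was at 5.74 against 20.2 (-1.65 and -1.60). In dual-enSERT-2 2 of 8 were higher and 1 lower, with a median of 0.15, where 13.3% and 10.4% of all genes were.

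Grem1 had the largest ratio among genes higher in variant-only cells by the naming rule. It encodes a secreted BMP antagonist that links Shh to FGF signalling in the ridge and is known from mesenchyme next to the polarizing region. It lies on chromosome 2 (113576509 to 113589000, minus strand). Its level was 59.4 CPM in variant-only, 13.0 in reference and 35.1 in cells with neither reporter of dual-enSERT-1, a log2 fold of 2.11 for variant-only over reference (4.56-fold, 3.80 to 5.49). At 5000 UMIs 16.9% of variant-only and 2.66% of reference cells had a Grem1 UMI, with 0.844% of non-mesenchyme cells. In dual-enSERT-2 Grem1 was 34.6 against 19.3 (0.81, ratio 0.992 to 3.07), and 32.2% of the reference UMIs there came from 1 cell. That fold was -0.13 against reference cells with fewer than 5 eGFP UMIs and -0.17 among cells without a Shh UMI. Within reference cells of dual-enSERT-1 Grem1 was 7.69 where eGFP was 5 or more and 20.5 where it was lower, so the fold was 2.80 against the first and 1.49 against the second. Without cells called doublets it was 2.78. Among cells without a Shh UMI Grem1 was 60.3 against 14.7 (1.97). Jag1, a Notch ligand, was at 45.9, 16.9 and 21.0 in variant-only, reference and neither-reporter cells (1.39), with 6 and 12 UMIs in dual-enSERT-2 (1.34).

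Several BMP genes were lower in variant-only cells of dual-enSERT-1. Of 6 BMP ligands and antagonists measured there, 2 were lower and 1, Grem1, higher, beside 1.23% and 1.58% of all genes, with a median of -0.24. In dual-enSERT-2 2 of 5 were lower and 2 higher, beside 10.4% and 13.3% of all genes, with a median of 0.26. Bmp4, a BMP ligand of the limb mesenchyme, was 169.5 CPM in variant-only, 339 in reference and 69.3 in cells with neither reporter of dual-enSERT-1 (ratio of variant-only to reference 0.474 to 0.527). In dual-enSERT-2 Bmp4 was 102, 330.2 and 41.6 (log2 fold -1.69). Bmp5 was lower in dual-enSERT-1 (12.9 against 21.0, -0.67) and at 0.26 in dual-enSERT-2, and Bmp7 stood at 38.9 against 50.2 (-0.36, and -1.09 in dual-enSERT-2). Of 9 BMP response genes measured in dual-enSERT-1, Bambi, Msx1 and Msx2 were lower and none higher, with a median of -0.20, where 1.23% of all genes were lower. Msx1 and Msx2 also belong to the distal list above and were counted there too. In dual-enSERT-2 1 of 8 was lower, Bambi, where 10.4% of all genes were, and Msx1 and Msx2 were at -0.36 and -0.40. Bambi, a decoy receptor induced by BMP, was at 52.4 against 114 (-1.11, and -1.53 in dual-enSERT-2), whereas Id1, Id2, Id3, Smad6 and Smad7 were between -0.37 and 0.05 in dual-enSERT-1. Among WNT genes, the secreted inhibitor Dkk1 (8.83 against 15.7, -0.77) and Ankrd6 (15.1 against 26.3, -0.76) were lower in dual-enSERT-1 and the WNT agonists Rspo2 (6.70 against 3.44, 0.79) and Rspo3 (82.8 against 46.2, 0.83) higher. In dual-enSERT-2 the folds of these genes were -1.29, -0.90, 0.26 and 0.58. No FGF response gene of 9 and no S or G2/M phase gene of 12 each passed the fold in dual-enSERT-1, and all 12 G2/M genes were above 0 with a median of 0.14, against -0.04 in dual-enSERT-2. Of 11 measured ETS factors, the protein family whose sites occur in the ZRS, 1 passed the fold in dual-enSERT-1, Etv1 at 18.8 against 29.0 (-0.60).

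The remaining genes named as higher were of mixed function and several were also high in cells with neither reporter. Their main folds had the same sign in both libraries by the naming rule. Ebf1, a transcription factor of mesenchyme and B cells, was at 473 CPM against 215 in dual-enSERT-1 (log2 fold 1.13, and 1.13 in dual-enSERT-2) and at 698 in cells with neither reporter. Hpse2, which encodes a heparan sulfate binding protein, was at 158, 68.4 and 299.6 in the same order (1.19 and 2.52). Its fold without cells called doublets was 3.19, and among cells with a Hand2 UMI it was 0.49. With groups drawn after thinning it was 2.53, and in dual-enSERT-2 it was -0.54 among cells with a Hoxa13 or Hoxd13 UMI. Eya4, a transcriptional coactivator, was at 36.6, 16.5 and 73.5 (1.11 and 1.34). The second value rests on 6 and 12 UMIs and was -1.04 among cells with a Hoxa13 or Hoxd13 UMI. Samd12 (38.0 against 12.6, 1.52, or 2.19 with groups drawn after thinning) had all 11 of its variant-only UMIs in dual-enSERT-2 in 1 cell, and its fold there was -1.41 without the top cell of each group. Ptprt, a receptor tyrosine phosphatase, was at 22.0 against 7.82 (1.38 and 1.84). In dual-enSERT-2 it had 5 and 6 UMIs, 60.0% of the 5 in 1 cell, and its fold was -1.47 among cells with a Hoxa13 or Hoxd13 UMI and -1.59 among cells with a Hand2 UMI. Socs2, a suppressor of cytokine signalling, was at 36.1 against 14.5 (1.26 and 0.47). Pknox2, a TALE homeodomain factor, was at 39.7 against 16.6 (1.21 and 0.42), with a fold of 1.86 without cells called doublets. In dual-enSERT-2 Pknox2 had 2 and 8 UMIs, and its fold was -1.80 among cells with a Hoxa13 or Hoxd13 UMI and -1.75 among cells with a Hand2 UMI. The proteoglycan Spock3 was at 32.6 against 14.2 (1.14 and 0.77). Among fixed lists, the cartilage regulator Sox9 (139 against 83.0, 0.74) and the collagen Col1a2 (117 against 71.4, 0.70) were higher in dual-enSERT-1, while cells with neither reporter stood at 294 and 260.2.

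No H11 neighbour measured was past the fold between variant-only and reference cells in either library, but Eif4enif1 differed from cells with neither reporter in dual-enSERT-1. Eif4enif1, a translation regulator next to H11 (chromosome 11, 3152235 to 3194588, plus strand), was 153 CPM in variant-only and 199 in reference cells of dual-enSERT-1 but 54.8 in cells with neither reporter. In dual-enSERT-2 these levels were 42.3, 51.8 and 57.6. Against the 1756 dual-enSERT-1 cells with neither reporter but a Hoxa13 or Hoxd13 UMI, the log2 fold of Eif4enif1 in all 667 variant-only cells was 1.41 (ratio 2.51 to 2.86). The other neighbour Drg1 (3137360 to 3216488, minus strand, overlapping Eif4enif1) was at 125, 135 and 113 in dual-enSERT-1. Patz1, a zinc finger gene of the same neighbourhood, was at 60.9, 76.9 and 52.6 in dual-enSERT-1 and at 82.6, 87.6 and 71.2 in dual-enSERT-2. Whether counting used strand is not given in the sources used here. Reads of this overlapping pair may therefore not be separable. Lmbr1 was at 19.1 against 29.5 in dual-enSERT-1 (-0.60) and 21.1 against 31.5 in dual-enSERT-2 (-0.55), and Mnx1, a homeobox neighbour of Shh, at 2.50 against 10.7 (-1.74).

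Levels followed the reporter counts in steps. In cells without mCherry of dual-enSERT-1, Hoxd13 was 42.6 CPM at 0 eGFP UMIs, 57.9 at 1 to 2, 119.7 at 3 to 4, 158 at 5 to 9 and 178 at 10 or more. Meis2 went the other way over the same steps, 199.7, 178, 98.8, 72.4 and 62.7. Shh stayed at or under 5.15 in every eGFP step. These steps left out every cell with an mCherry UMI, among them the 273 reference cells with 5 or more eGFP UMIs. Steps of eGFP and of mCherry thus hold unlike cells, and Shh along them does not compare the reporters. Along mCherry in all gated cells, Shh went 1.19, 8.74, 36.7, 67.3 and 101 over the same steps, Tbx2 from 24.0 to 126 and Bmp4 from 85.1 to 368, while Grem1 went from 41.0 to 13.7 and Asb4 from 272 to 86.9. Eif4enif1 increased along both reporters, from 54.8 to 187 with eGFP and from 66.5 to 213 with mCherry. In dual-enSERT-2 Eif4enif1 was 56.3 at 0 and 62.6 at 10 or more mCherry UMIs.

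**Figure D4:**
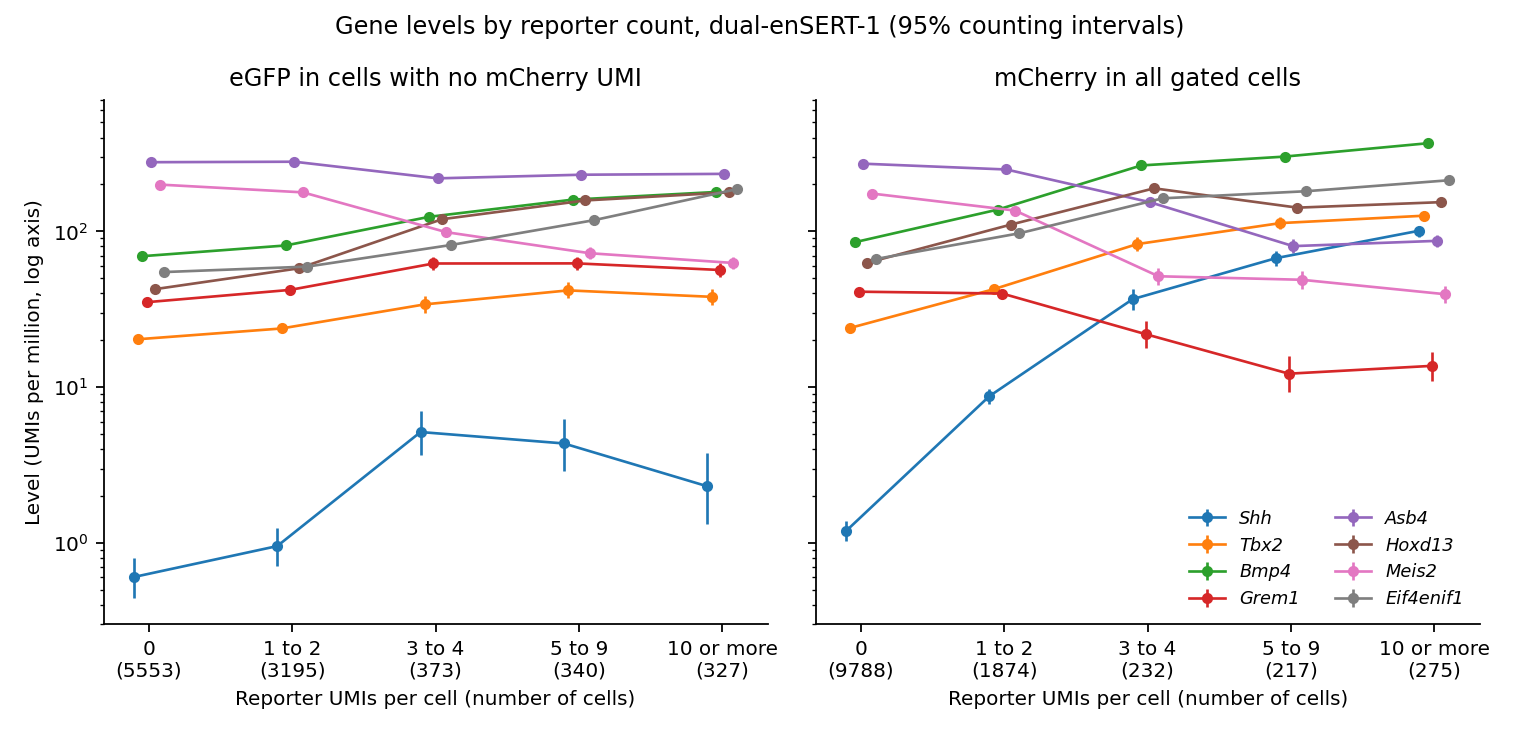
Pooled level of 8 genes (log axis, CPM) over steps of eGFP in cells without mCherry (left) and of mCherry in all gated cells (right) of dual-enSERT-1, with the number of cells in parentheses and bars for 95% exact Poisson intervals. Shh reached 101 in the highest mCherry step and 2.31 in the highest eGFP step. The eGFP steps leave out all cells with mCherry, so these levels come from unlike sets of cells.

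Cells just outside and just inside the thresholds were read as well. The 130 dual-enSERT-1 cells with exactly 4 eGFP UMIs and no mCherry had Shh at 7.07 CPM, Grem1 at 71.0, Tbx2 at 35.7 and Meis2 at 94.5. The 83 cells with exactly 5 eGFP UMIs had Shh at 3.23, Grem1 at 60.7, Tbx2 at 45.2 and Meis2 at 45.8. The 82 cells with exactly 4 mCherry UMIs had Shh at 47.7, Grem1 at 18.7 and Tbx2 at 83.4, and the 61 with exactly 5 had Shh at 75.1, Grem1 at 4.27 and Tbx2 at 105. A further 316 cells had 5 or more eGFP UMIs and exactly 1 mCherry UMI and belonged to neither group.

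Variant-only cells were not uniform in position. After thinning to 5000 UMIs, 45.5% of 661 had both a Hand2 and a Hoxa13 or Hoxd13 UMI, 23.0% had Hoxa13 or Hoxd13 without Hand2, 17.9% had Hand2 only and 13.6% neither. In reference cells these shares were 60.9%, 17.6%, 17.0% and 4.50% of 489, and in cells with neither reporter 11.7%, 8.96%, 30.7% and 48.7% of 5269. In dual-enSERT-2, 9 of 16 variant-only cells had neither (56.2%, 29.9 to 80.2) as had 10 of 87 reference cells. Non-mesenchyme cells of dual-enSERT-1 (median 17024 UMIs before thinning) had neither in 92.6%. Without thinning, 565 variant-only cells had a Hand2 UMI (84.7%) and 102 did not (15.3%), whereas 10 reference cells did not (2.03%).

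The 102 variant-only cells without a Hand2 UMI had a different profile from the 565 with one. This division was added after values had been seen and is a description. The cells without Hand2 had more Pax9 (29.0 against 3.13 CPM, 9.26-fold, 5.95 to 14.5), Hpse2 (571 against 96.5, 5.92-fold, 5.43 to 6.45) and Asb4 (525 against 189, 2.78-fold). Lhx9 (466 against 192), Msx1 (496 against 234) and Crabp1, a retinoic acid binding protein (441 against 139.6), were also higher. Ptch1 was 4.90-fold lower (42.0 against 206, 3.89 to 6.27) and Gli1 4.52-fold lower (5.68 against 25.7, 2.43 to 9.53). Tbx2 was at 5.11 against 45.1, Hoxd12 at 21.0 against 120.2, Hoxd13 at 46.6 against 186 and Grem1 at 19.3 against 65.3. No Shh UMI was seen in these 102 cells. Hoxa13 at 119 against 155 and Wnt5a at 232 against 255 differed less, and Bmp4 was at 207 against 164. eGFP itself was 939 against 600.3.

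Cells of dual-enSERT-1 with neither reporter, no Hand2 UMI and a Hoxa13 or Hoxd13 UMI (469 cells) were set beside the variant-only cells without Hand2. The Hoxa13 or Hoxd13 UMI was required of the 469 cells only, so their levels of these genes depend on that selection. Counting intervals overlapped for Pax9 (22.8 in the 469 cells), Gli3 (335 against 353) and Tbx2 (3.53), and for the selected genes Hoxa13 (119.5) and Hoxd13 (43.5). The intervals did not overlap for Msx1 (334 against 496), Lhx9 (384 against 466), Asb4 (436 against 525), Hpse2 (680.3 against 571), Ptch1 (61.0 against 42.0) and Eif4enif1 (57.3 against 219). Leaving out cells called doublets kept 96 and 459 variant-only cells and gave log2 folds of 3.61 for Pax9, 3.15 for Hpse2 and 1.72 for Asb4 between those without and with Hand2, against 2.86, 2.55 and 1.47 with them. In dual-enSERT-2 the division left 4 cells without and 12 with Hand2. There Asb4 was 857 against 215 and Ptch1 44.3 against 269.9, and the 4 cells had no Tbx2 UMI.

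**Figure D5:**
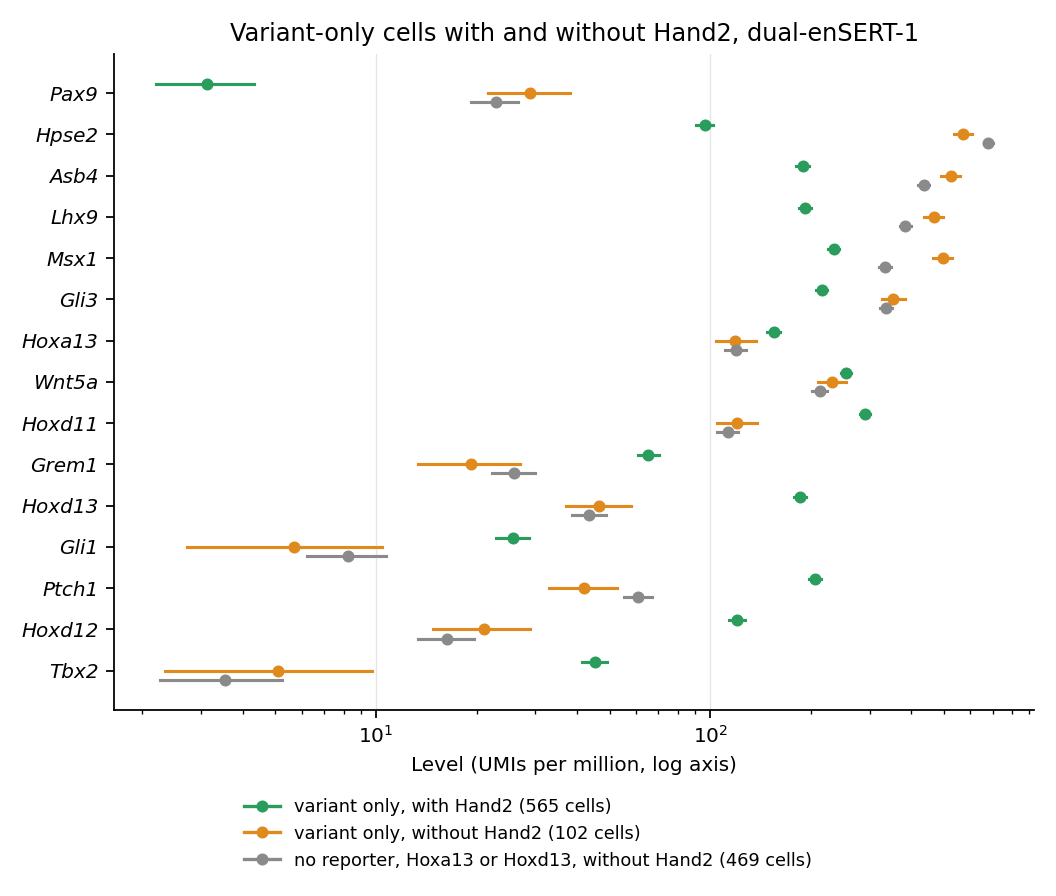
Pooled level of 15 genes (log axis, CPM, bars for 95% exact Poisson intervals) in variant-only cells of dual-enSERT-1 with and without a Hand2 UMI, and in cells with neither reporter that had a Hoxa13 or Hoxd13 UMI and no Hand2. Pax9, Hpse2 and Asb4 were higher and Ptch1, Hoxd13 and Tbx2 lower in the 102 cells without Hand2 than in the 565 with it.

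Restricting both groups to cells with a Hand2 UMI (565 against 482 in dual-enSERT-1) gave 75 higher and 52 lower genes. Without that limit 70 and 54 of 7144 genes were higher and lower (0.980% and 0.756%). Hpse2 (0.49) and Pax9 (0.04) were no longer past the fold. Grem1 was 65.3 against 13.0 CPM (log2 fold 2.24), Asb4 189 against 83.0 (1.18), Ebf1 488 against 213 (1.19), Jag1 50.1 against 17.2 (1.49), Tbx2 45.1 against 121 (-1.41) and Bmp4 164 against 341 (-1.05). Ptch1 was 206 against 201 (0.04) and Gli1 25.7 against 18.0 (0.49). All 667 variant-only cells, of which 608 had a Hoxa13 or Hoxd13 UMI, were also set against cells with neither reporter that had one. These groups were thus not matched in position. The variant-only cells had more Tbx2 (39.9 against 18.5, 1.07), Bmp4 (169.5 against 86.9, 0.96), Hoxd12 (107 against 61.0, 0.81) and Hand2 (243 against 196, 0.31). They had about equal Grem1 (59.4 against 59.1) and less Hpse2 (158 against 325, -1.04).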

How the data were processed

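Single-cell RNA-seq was made from 2 hindlimb libraries with a 10x Genomics 3′ kit, per the labels. Per the file headers, the deposited values are raw UMI counts (whole numbers for each gene and barcode) from Cell Ranger 7.0.1. The submitters' processing notes list Cell Ranger 3.1.0, with Seurat 4 and mm39, and this difference was not resolved. Use of introns and strand is not given in the sources used here. Of 56982 feature IDs 56236 were found in GENCODE M39 (GRCm39), the source of coordinates.

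Computation used Python 3.11.15, NumPy 2.4.6, SciPy 1.17.1, pandas 2.3.3, Scanpy 1.11.5 (Scrublet, expected rate 8%) and matplotlib 3.10.9. Gate steps kept 60.4% and 42.2% of barcodes. UMIs were summed over the cells of a group and divided by all their UMIs (CPM, UMIs per 1000000), with totals of 13590554 and 10740586 UMIs for variant-only and reference cells of dual-enSERT-1 and 520687 and 3049660 of dual-enSERT-2. Folds add 1 CPM, and levels, ratios and shares have 95% exact Poisson or Clopper-Pearson intervals. Steps were checked on simulated data. Doublets were kept in the main values.

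The 12 genes named per direction had an absolute log2 fold of 0.58, 20 CPM or more, the same sign in both libraries and 10 or more UMIs in dual-enSERT-2, ranked by the interval bound nearest 1 in dual-enSERT-1. A fixed set of pathway genes and up to 4 members per list were added. Members and lists were chosen with earlier results of these data known. List members counted as measured at 5 CPM, and some members are not reported here. Alternatives varied reporter thresholds, depth, gate, doublets, pseudocount, minimum level, fold, scaling and subsets of cells.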

Additional observations from a re-analysis of the deposited data

Results flagged for a closer look

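Several genes differed in direction between the libraries, with opposite signs of the log2 fold of variant-only over reference cells, and the differences between libraries were not tested. Hoxd13 was 0.18 in dual-enSERT-1 but -1.20 in the second library, Lhx9 was -0.24 and 0.61, Cyp26b1, a retinoic acid degrading enzyme, was -0.18 and 0.95, the immediate early gene Junb was -0.56 and 0.64, and the topoisomerase Top2a was 0.14 and -0.21. The posterior list median was 0.15 and -0.55. The dual-enSERT-2 values rest on 16 variant-only cells.

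Both reporters were also read in ectoderm, endothelium and muscle cells outside the gate, in which neither group was drawn. There eGFP was 30.3 and mCherry 8.25 CPM in the first library, and each was at 8.92 CPM in the second library.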

How the results depend on the processing

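No paired analysis was possible because each construct had 1 library. Of 681 single-gene folds recomputed in dual-enSERT-1, 566 stayed within the counting interval, 115 moved beyond it, and 6 folds of 3 genes, none past the fold with 20 CPM, changed sign. Of 609 in dual-enSERT-2, 47 folds of 19 genes changed sign, 4 of them in genes past the fold with 20 CPM. The 70 higher and 54 lower genes of dual-enSERT-1 became 171 and 133 with a minimum of 5 CPM, 530 and 427 with none, 20 and 18 with a fold of 1, and 126 and 85 with groups drawn after thinning to 10000 UMIs, and 26 were lower among cells without a Shh UMI. The 508 and 424 of dual-enSERT-2 became 98 and 79 at a reporter threshold of 3 UMIs, 1464 and 1146 at 5 CPM, 3139 and 4181 with no minimum, 108 and 108 with a fold of 1, 1396 and 1089 with counts thinned after grouping, 944 and 795 without Shh, and 276 and 793 without each gene's top cell. Higher genes numbered 866 in cells of 10000 to 40000 UMIs and 795 by the mean of single-cell levels. The dual-enSERT-1 fold of Shh (-4.34) was -3.86 at a threshold of 3 UMIs, -4.94 at 10 and -3.45 with 5 CPM added. The posterior median (0.15) was 0.00 at a threshold of 3, 0.25 against reference cells of fewer than 5 eGFP UMIs and -0.09 without Shh, and the proximal median (0.43) was 0.61 without doublets. Those 4 were Grem1, -0.13 against reference cells of fewer than 5 eGFP UMIs and -0.17 without Shh, Hpse2, -0.54 among cells with Hoxa13 or Hoxd13, and Samd12, -1.41 without its top cell. Among genes of fewer UMIs there, Ptprt (1.84) was -1.59 among Hand2 cells, Alx4 (2.03) -0.77, Eya4 (1.34) -1.04 and Pknox2 (0.42) -1.80 among cells with Hoxa13 or Hoxd13. Apart from fewer or more genes tested, the cause was not tested. A threshold of 10 and groups drawn after thinning left 2 and 7 variant-only cells in dual-enSERT-2 and were not run there. Depth limits genes of few UMIs in its 16 cells.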
